A study of Gallus gallus with 6 samples.

Results

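The transcripts examined here are those of the insulin receptor and of the proteins that carry its signal inside the hepatocyte, in the livers of 6 cocks. They were 9 genes, namely INSR, IRS1, IRS2, IRS4, PIK3R1, PIK3CA, AKT1, GRB10 and GRB14, and their rows were found by NCBI Gene ID through the symbols of the chicken RefSeq gene table. Of these, 8 had a row among the 20498 genes of the deposited table. IRS1 had no entry under its symbol in that gene table and was not analysed here. The birds were F1 males of the dwarf Jingxing-Huang (JXH) line, killed at 36 weeks of age after being raised on the basal diet, with 1 RNA-seq library per bird. The fatty liver group was 3 birds diagnosed with the condition (affected birds) in the paternal inheritance group. Their sires had developed fatty liver on a high-fat diet and were mated to hens without it. The hens of that group were fed the high-fat diet as well. The control group was 3 birds with non-fatty liver whose parents had been kept on the basal diet. Every bird with fatty liver had an affected sire and parents fed the high-fat diet, and no control bird had either. The phenotype, the paternal history and the diet of the dams therefore cannot be told apart. The kinship of the 6 birds is not given in the sources used here.

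Insulin binds the receptor INSR, a tyrosine kinase of the cell surface, which then phosphorylates docking proteins called insulin receptor substrates. The phosphorylated substrates recruit PI3-kinase, whose lipid product brings the kinase AKT to the membrane, where it is activated. In liver this route restrains glucose output and favours lipid synthesis, partly because AKT keeps FoxO transcription factors out of the nucleus. GRB10 and GRB14 are adaptors that bind the active receptor and, in mammals, damp its signal. In mammals the hepatic response is attributed mainly to IRS1 and IRS2, and IRS2 is itself among the genes that FoxO factors switch on. These values are transcript levels, so they carry no information on receptor phosphorylation or kinase activity.

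Levels are given as FPKM, that is fragments divided by exon length and by the number of mapped fragments of the library, so that levels of different genes can be set beside each other. Library totals, worked out from the FPKM, were between 8860634 and 10403637 fragments, and the 8 genes were counted on 95 to 1434 fragments in a library. All 8 passed the filter of a mean of 1 FPKM, as did 10886 genes in all, and they lay between the 29.8th and the 72.2nd percentile of the level of those genes. Fold changes are on the scale of log2(FPKM + 1), fatty liver against control, and were tested with limma over all 10886 genes, with Benjamini-Hochberg adjustment and the FDR threshold of 0.05. Over all tested genes the fold changes had a median of 0.12, so each member is also given relative to this shift. Hepatocyte transcripts were abundant in every library, with 9 of the 10 marker genes found and none of them near 0, at a summed level between 122399 and 152426 FPKM in control birds and between 125280 and 135633 FPKM in affected birds. The summed levels of stellate cell, endothelial, macrophage, erythrocyte, bile duct and lymphocyte markers overlapped between the groups, and of all these markers 1 passed the adjusted threshold, SOX9 of the bile duct list (log2 fold change 1.55, adjusted p = 0.0383). The other bile duct markers tested, KRT7 and EPCAM, had log2 fold changes of -0.22 and -0.59. The median log2 fold change was -0.53 for the lymphocyte markers, whose sums were 32.9 to 60.5 FPKM in control birds and 17.8 to 42.7 FPKM in affected birds. It was -0.27 for the hepatocyte markers and between -0.22 and 0.20 for the other lists. The macrophage sum ranged most, from 30.3 to 85.9 FPKM in control birds and from 15.2 to 136.0 FPKM in affected birds, and the part of these cell types in the results was not tested.

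Between the 2 groups, the receptor and both substrates were lower on average in birds with fatty liver, and AKT1 and GRB14 were higher, while both PI3-kinase subunits stayed close to the shift of all genes. None of the 8 genes passed the adjusted threshold in limma, where 1.14% of all tested genes did. At an unadjusted p under 0.05 the count was 1, IRS4, against 16.3% of all tested genes. With limma's voom on the whole fragments the count past the adjusted threshold was 1, again IRS4. The birds with fatty liver lay on 1 side of the control birds in 3 of the 8 genes, IRS4 and INSR below and AKT1 above, where 23.0% of all tested genes were separated in this way. The median log2 fold change of the 8 genes was -0.04.

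**Figure D1:**
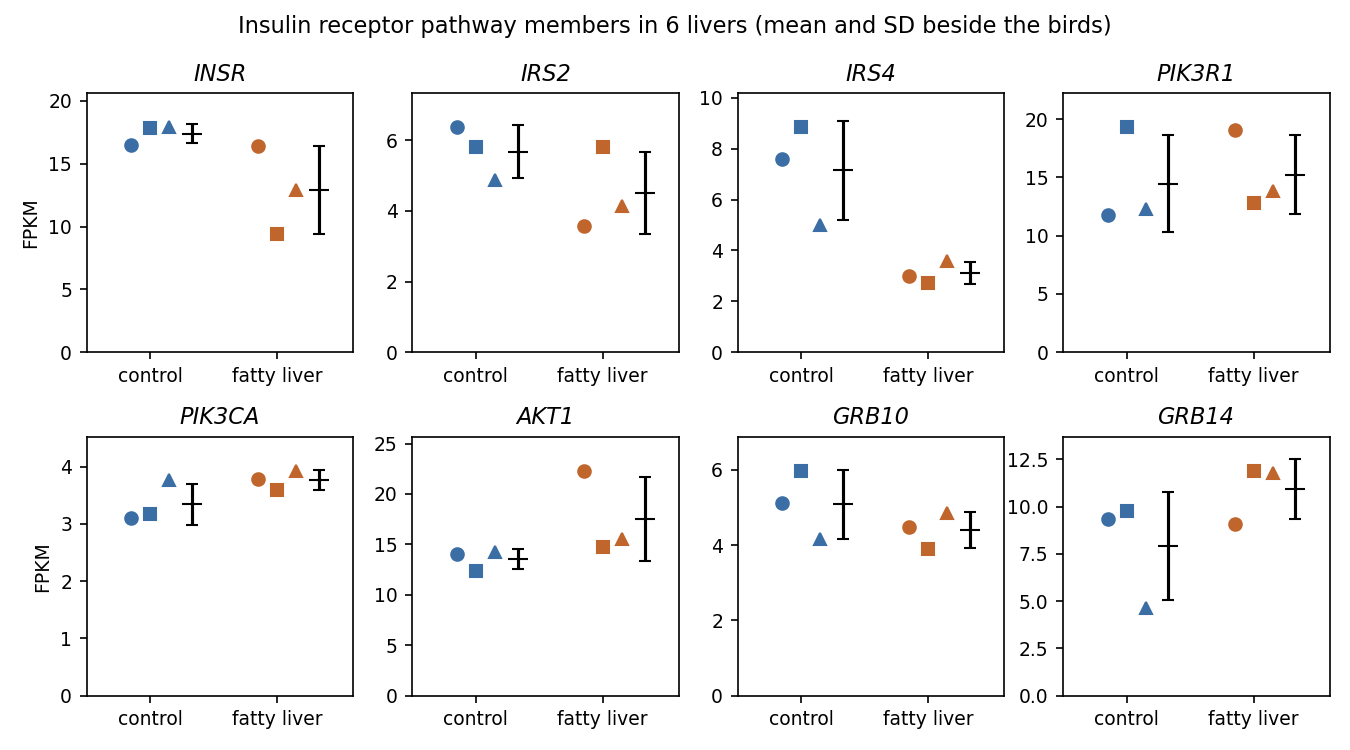
FPKM of the 8 genes in each bird, with control birds in blue and birds with fatty liver in orange (circle, square and triangle for replicates 1, 2 and 3), and the mean and SD of each group in black. IRS4 lies at 5.01 to 8.84 FPKM in control birds and at 2.73 to 3.60 FPKM in affected birds, whereas PIK3R1 and IRS2 overlap between the groups.

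INSR had the highest mean of the 8 transcripts in control livers, though PIK3R1 was above it in control replicate 2, at 19.3 FPKM. INSR had 16.5, 17.8 and 17.9 FPKM in control replicates 1, 2 and 3 and 16.4, 9.37 and 12.9 FPKM in fatty liver replicates 1, 2 and 3. The 3 control birds were nearly level, while fatty liver replicate 1 lay just below the lowest of them and the other two lay well below. The mean was 17.4 ± 0.799 FPKM (SD, n = 3 birds) in control and 12.9 ± 3.51 FPKM in fatty liver, a ratio of 0.740. The log2 fold change was -0.44 (standard error 0.21, 95% interval -0.91 to 0.04, limma adjusted p = 0.346), or -0.56 relative to all tested genes. It was -0.24 without fatty liver replicate 2 (adjusted p = 0.639) and -0.62 without fatty liver replicate 1 (adjusted p = 0.212). The groups were separated, which in the two-sided exact permutation test gives p = 0.1, and no smaller p can be reached with 3 birds in each group. The coefficient of variation between birds was 4.59% in control and 27.3% in fatty liver, where counting alone would give about 2.69% and 3.14%. The related receptor IGF1R, which binds insulin-like growth factors and was named after its values were seen, had a lower level than INSR in both groups. Its mean was 3.03 ± 0.644 FPKM in control against 2.43 ± 0.523 FPKM in fatty liver, with a log2 fold change of -0.23 (adjusted p = 0.616).

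IRS4 differed most between the groups among the 8 genes. It had 7.60, 8.84 and 5.01 FPKM in control replicates 1, 2 and 3, on 481, 477 and 295 fragments. In fatty liver replicates 1, 2 and 3 it had 2.99, 2.73 and 3.60 FPKM, on 182, 160 and 221 fragments. The lowest control bird was thus above the highest bird with fatty liver, and the control birds were the more spread of the 2 groups. The mean was 7.15 ± 1.95 FPKM in control birds and 3.11 ± 0.449 FPKM in affected birds, that is 2.30 times as high in control. The log2 fold change was -0.96 (standard error 0.21, 95% interval -1.45 to -0.47), or -1.09 relative to all tested genes. The unadjusted p was 0.00191, which ranked IRS4 at place 266 of the tested genes, and the adjusted p was 0.0781 (exact permutation p = 0.1). IRS4 is among the genes that the study itself picked as changed on these libraries, so its direction here is not independent evidence. The study also measured this gene, written ISR4 there, by qRT-PCR in these birds, their sires and additional F1 half-sibs. It reported lower levels with fatty liver in both generations, and those data were not analysed here. Over the 15 alternative fits the adjusted p was between 0.0453 and 0.224, and it passed the threshold in 2 of them. These were voom on the whole fragments (adjusted p = 0.0453) and the fit without control replicate 3, the control bird with the lowest IRS4 (log2 fold change -1.17, adjusted p = 0.0489). In bulk liver, fewer cells that carry a transcript and less of it per cell cannot be told apart.

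IRS2, the other substrate, had 6.37, 5.80 and 4.87 FPKM in control replicates 1, 2 and 3 and 3.57, 5.81 and 4.13 FPKM in fatty liver replicates 1, 2 and 3. Fatty liver replicate 2 lay inside the control range and the other two lay below it, so the groups overlapped. The mean was 5.68 ± 0.757 FPKM in control against 4.50 ± 1.16 FPKM in fatty liver, and the difference was not past the threshold (log2 fold change -0.29, standard error 0.19, 95% interval -0.74 to 0.15, adjusted p = 0.493). The interval of the difference includes 0, and relative to all tested genes the log2 fold change was -0.42. Fatty liver replicate 2, with the highest IRS2 of its group, had the lowest IRS4 and the lowest INSR of all 6 birds. The control group did not share this pattern, since control replicate 3 had the lowest IRS2, the lowest IRS4 and the highest INSR of its group.

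The relative abundance of the substrates was then compared within each bird, which does not depend on the scale of its library. IRS4 made up 54.4%, 60.4% and 50.7% of the summed IRS2 and IRS4 FPKM in control replicates 1, 2 and 3. In fatty liver replicates 1, 2 and 3 its share was 45.6%, 32.0% and 46.6%. IRS4 was therefore the larger part in each control bird and the smaller part in each bird with fatty liver, with means of 55.2% ± 4.87 (SD, n = 3 birds) and 41.4% ± 8.16. The ratio of IRS4 to IRS2 was 1.25 ± 0.252 in control and 0.727 ± 0.223 in fatty liver. The summed level of the 2 substrates was 14.0, 14.6 and 9.88 FPKM in control birds and 6.57, 8.54 and 7.73 FPKM in affected birds, without overlap. The sum contains IRS4, which was itself separated, while IRS2 alone overlapped, so it is not a further result. IRS1 is not in these sums. The crossing of the 2 substrates rests on the length that FPKM are divided by, since on whole fragments, which favour the longer transcript, the IRS4 share was 48.3% in control and 35.0% in fatty liver. The ranges of IRS4 and IRS2 overlapped in control, where IRS4 lay at 5.01 to 8.84 FPKM and IRS2 at 4.87 to 6.37 FPKM. In fatty liver they overlapped by a narrow margin, since the highest IRS4 was 3.60 FPKM and the lowest IRS2 was 3.57 FPKM.

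**Figure D2:**
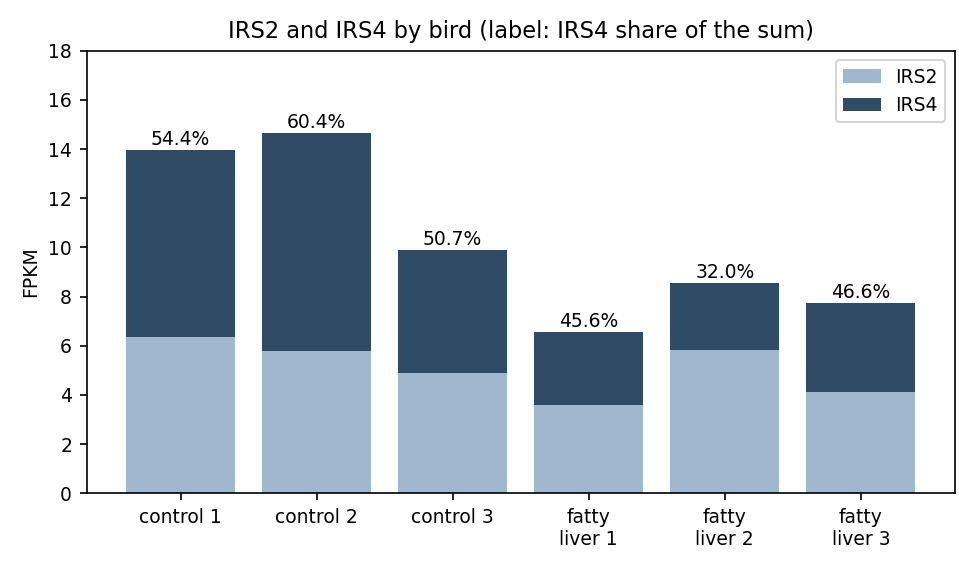
FPKM of IRS2 (light) and IRS4 (dark) stacked for each of the 6 birds, with the IRS4 share of the sum printed above each bar. The share is 50.7% to 60.4% in control birds and 32.0% to 46.6% in affected birds, and the total height is lower in every bird with fatty liver. IRS2 alone overlaps between the groups.

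PIK3R1 encodes the main regulatory subunit of PI3-kinase, which binds the phosphorylated substrates, and PIK3CA a catalytic subunit. PIK3R1 had 11.8, 19.3 and 12.3 FPKM in control replicates 1, 2 and 3 and 19.1, 12.8 and 13.8 FPKM in fatty liver replicates 1, 2 and 3. A single bird stood high in each group, and the groups overlapped almost entirely (log2 fold change 0.09, 95% interval -0.46 to 0.63, adjusted p = 0.897). The sign of this value turned under the 4 rescalings of the libraries, and relative to all tested genes it was -0.04. PIK3CA had 3.10, 3.17 and 3.76 FPKM in control birds and 3.79, 3.59 and 3.93 FPKM in affected birds, the lowest level of the 8 genes in control. Its log2 fold change was 0.14 (95% interval -0.21 to 0.48, adjusted p = 0.7), which is 0.02 relative to all tested genes. PIK3CA varied between birds by 10.9% in control and 4.53% in fatty liver, and counting alone would give about 9.62% and 8.91%, so that a difference between single birds was not detectable at this depth. The ratio of PIK3R1 to PIK3CA was 4.39 ± 1.51 in control and 4.04 ± 0.874 in fatty liver, with overlap.

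AKT1, the kinase that acts below PI3-kinase, had 14.0, 12.4 and 14.2 FPKM in control replicates 1, 2 and 3 and 22.3, 14.7 and 15.5 FPKM in fatty liver replicates 1, 2 and 3. All birds with fatty liver lay above the control birds, but only replicate 1 by more than a small margin. The mean was 13.5 ± 0.998 FPKM in control against 17.5 ± 4.19 FPKM in fatty liver, a difference not past the threshold (log2 fold change 0.33, standard error 0.19, 95% interval -0.11 to 0.77, adjusted p = 0.437, exact permutation p = 0.1). The log2 fold change of AKT1 was 0.21 relative to all tested genes. Without fatty liver replicate 1 it was 0.15 in the limma fit (adjusted p = 0.757). When the 50 most abundant genes were taken out of the library totals, the groups overlapped, with rescaled levels of 12.2 to 15.9 for control birds and 14.1 to 21.5 for affected birds. Under the same rescaling INSR and IRS4 remained separated, and GRB10 became so with lower levels in fatty liver. This again makes 3 of 8 genes, beside 21.4% of all tested genes. The margin of GRB10 was narrow, with 4.46 in the lowest control bird and 4.44 in the highest affected bird. For GRB10 counting alone would give a variation of about 7.15% in control and 7.54% in fatty liver. The ratio of AKT1 to INSR, which was chosen after its values were seen, was 0.847, 0.696 and 0.793 in control and 1.36, 1.56 and 1.21 in fatty liver. Per length, INSR was the more abundant of the pair in every control bird and AKT1 in every bird with fatty liver. This crossing rests on the length that FPKM are divided by, 8269 bases for INSR and 2225 for AKT1. On whole fragments INSR was above AKT1 in every bird, with 1355 against 496 fragments in fatty liver replicate 1. AKT2 had no entry under its symbol and was not analysed here.

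GRB10 and GRB14 are the paired adaptors that bind the active receptor. GRB14 had 9.33, 9.79 and 4.64 FPKM in control replicates 1, 2 and 3 and 9.08, 11.9 and 11.8 FPKM in fatty liver replicates 1, 2 and 3. Control replicate 3 was the low bird, and fatty liver replicate 1 lay with the other two control birds. The log2 fold change was 0.47 (standard error 0.27, 95% interval -0.14 to 1.08, adjusted p = 0.428), or 0.35 relative to all tested genes. It was 0.17 without control replicate 3. GRB10 had 5.12, 5.98 and 4.16 FPKM in control birds and 4.49, 3.89 and 4.85 FPKM in affected birds. Its log2 fold change was -0.16 (95% interval -0.56 to 0.23, adjusted p = 0.692), or -0.29 relative to all tested genes. Within each bird the ratio of GRB14 to GRB10 was 1.82, 1.64 and 1.12 in control and 2.02, 3.07 and 2.43 in fatty liver. GRB14 was the more abundant adaptor in all 6 livers, and its excess over GRB10 was larger in each bird with fatty liver. The log2 ratios were 0.58 ± 0.37 (SD, n = 3 birds) in control and 1.31 ± 0.3 in fatty liver. The closest birds were control replicate 1 (1.82) and fatty liver replicate 1 (2.02). Counting alone would give a variation of about 7.15% and 7.54% for GRB10 and 5.99% and 4.85% for GRB14, in control and fatty liver. The ratio of GRB14 to INSR overlapped between the groups, at 0.566, 0.550 and 0.259 in control and 0.554, 1.27 and 0.916 in fatty liver.

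The order of the levels per length differed in the means of the 2 groups. In control it ran from INSR (17.4 FPKM) through PIK3R1 (14.5), AKT1 (13.5), GRB14 (7.92), IRS4 (7.15), IRS2 (5.68) and GRB10 (5.09) to PIK3CA (3.34). Only the steps from AKT1 to GRB14 and from GRB10 to PIK3CA separated neighbours whose ranges did not overlap. In fatty liver it ran from AKT1 (17.5 FPKM) through PIK3R1 (15.3), INSR (12.9), GRB14 (10.9), IRS2 (4.50), GRB10 (4.41) and PIK3CA (3.77) to IRS4 (3.11), and only the step from GRB14 to IRS2 was free of overlap. IRS4 thus stood between GRB14 and IRS2 in control and was last in fatty liver.

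**Figure D3:**
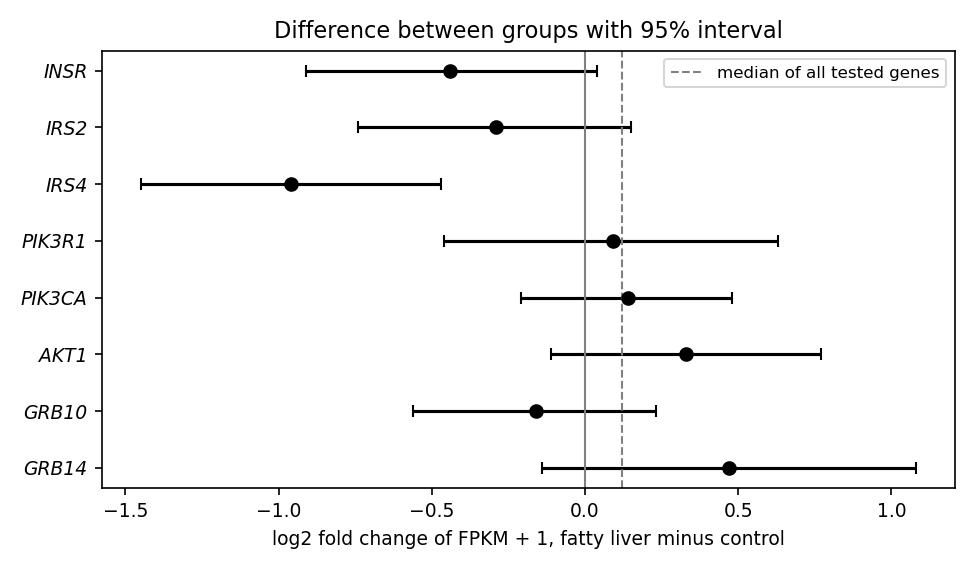
Log2 fold change of FPKM + 1 (fatty liver minus control) of the 8 genes with 95% intervals from limma. The solid line is 0 and the dashed line is the median of all tested genes, 0.12. Only the interval of IRS4, from -1.45 to -0.47, lies wholly on 1 side of both lines.

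The genes whose profile over the 6 libraries was most like that of each substrate were listed as a description. For IRS4 these were HAX1 (Pearson r = 0.988 on log2(FPKM + 1) over 6 libraries), MAB21L2 (r = 0.983) and MPHOSPH8 (r = 0.980). All 3 were separated between the groups and lower in fatty liver, with ratios of the means of 0.668, 0.637 and 0.639, and none passed the adjusted threshold (adjusted p = 0.131, 0.187 and 0.188). For IRS2 they were GALR1L (r = 0.988), XPNPEP2 (r = 0.958) and H1F0 (r = 0.956), and in each of these the groups overlapped. GALR1L was counted on as few as 6 fragments in a library. These values share the libraries, and for IRS4 also the difference between the groups, and they were picked as the highest among 10886 genes.

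Other genes of the insulin pathway were compared in 6 lists of 145 symbols, of which 134 had a row under the listed symbol and 116 passed the filter. Symbols were not matched through other names, so a gene without a row under its listed symbol may be in the table under another. None of the 116 passed the adjusted threshold in limma. At an unadjusted p under 0.05, 6 were higher, where 12.6% of all tested genes were, and 10 were lower, where 3.69% of all tested genes were. Of these 10 lower genes 7 were in the list of FoxO-regulated liver transcripts. The lists were picked with earlier results of these data known. Past the adjusted threshold voom called 1 gene, PTPN2. The median of all tested genes was 0.12. That of PI3-kinase and lipid phosphatases (16 genes) was 0.15, somewhat above it. Below it lay the medians of adaptors and docking proteins (18 genes, 0.04) and of AKT, mTOR and effectors (27 genes, 0.03). So did those of the RAS and MAP kinase branch (18 genes, 0.02) and of inhibitors of insulin signaling (22 genes, 0.03). The median of the FoxO-regulated liver transcripts (15 genes) was -0.42.

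Among the 18 adaptors, 0 were separated between the groups, beside 23.0% of all tested genes. SHC1, a docking protein that links the receptor to RAS, had the highest mean over all libraries, though GRB2 was higher in affected birds. SHC1 was at 33.4 ± 5.39 FPKM in control birds and 38.6 ± 10.1 FPKM in affected birds (adjusted p = 0.729). The largest differences were those of GRB2, the adaptor that brings SOS to the receptor (30.4 ± 3.16 and 39.8 ± 6.37 FPKM, log2 fold change 0.37, adjusted p = 0.354), and of DOK2 (0.35, adjusted p = 0.445). In the PI3-kinase list 14 of 16 genes had a log2 fold change above 0, against 67.2% of all tested genes. In 3 of them, among them PIK3R2, the affected birds lay above all control birds, beside 18.3% of all tested genes. After the rescaling without abundant genes this held for 0 of the 16, beside 10.4% of all tested genes. PIK3R2, a further regulatory subunit, had 7.29, 11.5 and 7.58 FPKM in control birds and 13.6, 11.6 and 12.4 FPKM in affected birds (log2 fold change 0.49, adjusted p = 0.274). PIK3C2B, a class II PI3-kinase, was at 2.71 ± 0.855 and 4 ± 0.541 FPKM with overlap (0.45, adjusted p = 0.324).

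Below AKT, TBC1D1, a regulator of glucose transporter traffic, had 1.27, 2.07 and 2 FPKM in control birds and 3.14, 3.40 and 2.83 FPKM in affected birds (log2 fold change 0.58, adjusted p = 0.174). The groups did not overlap in TBC1D1, unlike in SGK1, a kinase related to AKT (24.5 ± 9.07 and 16.3 ± 1.83 FPKM, -0.49, adjusted p = 0.428). RPS6, a ribosomal protein phosphorylated downstream of mTOR, was the most abundant of this list at 1195 ± 199.1 and 1276 ± 97.3 FPKM, and the sign of its log2 fold change of 0.11 turned under 3 of the rescalings. RHEB, the small GTPase that activates mTOR, was named after its values were seen, and had 76.3, 84.6 and 84.6 FPKM in control birds and 116.1, 113.6 and 109.1 FPKM in affected birds (0.46, adjusted p = 0.173). In the RAS branch, SOS2, an exchange factor for RAS, was lower on average without separation (9.59 ± 3.26 and 5.90 ± 1.13 FPKM, -0.58, adjusted p = 0.3). MKNK2, a kinase that acts on a translation initiation factor, was separated and lower, at 30.7 ± 1.03 and 24.1 ± 1.36 FPKM (-0.34, adjusted p = 0.295). HRAS varied from 4.94 to 22.5 FPKM within the control group alone (0.54, adjusted p = 0.602), and its log2 fold change was 0.05 without control replicate 1 and 1.04 without control replicate 2.

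Among the inhibitors of insulin signaling, PTPN2, a tyrosine phosphatase that in mammals dephosphorylates the insulin receptor, showed a larger difference than any of the 8 genes above. It had 14.9, 26.8 and 40.1 FPKM in control replicates 1, 2 and 3 and 7.46, 6.36 and 7.77 FPKM in fatty liver replicates 1, 2 and 3. The control birds differed widely from each other but each lay above all birds with fatty liver. The log2 fold change was -1.69 (standard error 0.32, adjusted p = 0.055), and it passed the threshold in 5 of the 15 alternatives, with adjusted p between 0.0248 and 0.157. Among these was the fit without control replicate 1, the control bird with the lowest PTPN2 (log2 fold change -2.05, adjusted p = 0.0248). PTPN1, a related phosphatase that in mammals acts on the same receptor, was named after its values were seen and was at 2.62 ± 0.480 and 2.34 ± 0.555 FPKM with overlap (-0.12, adjusted p = 0.811). PTPRF, a receptor-type phosphatase, was named after its values were seen and had 9.42, 8.41 and 6.17 FPKM in control birds and 12.2, 15.5 and 13.2 FPKM in affected birds (0.71, adjusted p = 0.120). In PTPRF the groups were thus separated, in the opposite direction to PTPN2. IKBKB, a kinase of the inflammatory response, had the next largest value in the list, but the groups overlapped (0.77, adjusted p = 0.332). It was counted on as few as 4 fragments, and with means of 0.524 FPKM among the controls and 1.77 FPKM among the affected birds it passed the filter only through the latter. Fatty liver replicate 2 had 3.44 FPKM of IKBKB, and without this bird the gene was under the filter and was not fitted. PPP2CB, a catalytic subunit of a phosphatase that acts on AKT, had the highest mean over all libraries. It was at 42.1 ± 6.67 FPKM in control birds and 46.6 ± 0.744 FPKM in affected birds (adjusted p = 0.696). In control birds the means of TRIB1 (45.3 FPKM) and PPP2CA (44.6 FPKM) were higher.

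**Figure D4:**
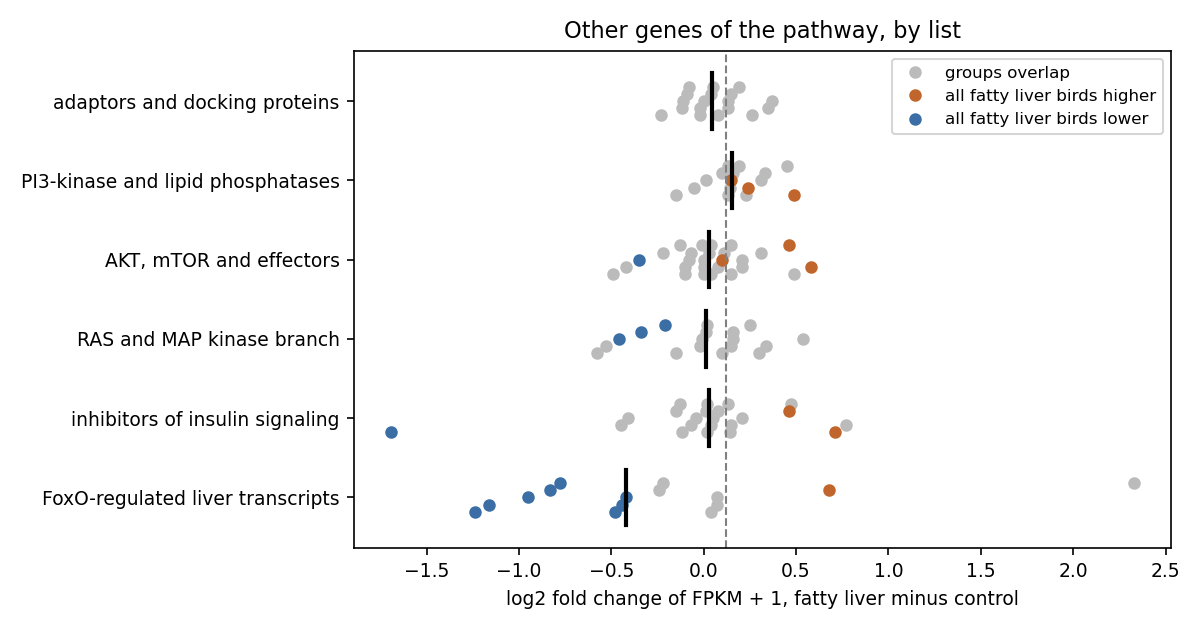
Log2 fold change of FPKM + 1 (fatty liver minus control) of the 116 tested pathway genes in 6 lists, each point 1 gene, with the median of each list as a black bar and the median of all tested genes, 0.12, as a dashed line. Blue points are genes in which all birds with fatty liver lay below the control birds, orange points those in which they lay above. In the FoxO list 8 of the 15 genes are blue, beside 4.78% of all tested genes. The list was picked with earlier results of these libraries known.

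The FoxO list was written from general knowledge. Many of its transcripts, but not all, are known, mostly from mammals, to be switched on by FoxO factors when insulin is low. Several also respond to fasting and glucocorticoids by other routes. Which of them FoxO factors control in these livers was not tested. In 8 of the 15 tested genes all birds with fatty liver lay below the control birds, where 4.78% of all tested genes did. In 1 gene they lay above, where 18.3% of all tested genes did. With the rescaled values 9 of the 15 were separated and lower, beside 11.1% of all tested genes. On the same values 0 were separated and higher, beside 10.4% of all tested genes. At an unadjusted p under 0.05 in limma, 7 were lower and 1 was higher, beside 3.69% and 12.6% of all tested genes. None passed the adjusted threshold in limma or in voom. The genes of this list were picked with earlier results of these libraries known, so the counts describe the list and do not test it. Glucose-6-phosphatase, the last step of glucose release, was listed as G6PC1, a symbol with no entry in the gene table, and is not in these counts. The row that the gene table calls G6PC was looked up after the results were seen, and it was more abundant than any of the 15, at 1089 ± 166 FPKM in control birds against 1016 ± 52.2 FPKM in affected birds with overlap (log2 fold change -0.09, adjusted p = 0.84). In the RAS and MAP kinase branch 3 of 18 genes were separated and lower, beside 4.78% of all tested genes. With the rescaled values these were 4 of 18, beside 11.1% of all tested genes. The FoxO factors themselves, named after their values were seen, overlapped between the groups. Their log2 fold changes were 0.49 for FOXO1 (adjusted p = 0.33), -0.1 for FOXO3 (0.853) and -0.1 for FOXO4 (0.786).

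IGFBP1, a binding protein for insulin-like growth factors that insulin represses in mammalian liver, had 172.5, 311.1 and 265.5 FPKM in control birds and 92.7, 134.6 and 85.6 FPKM in affected birds. Its level was thus 0.418 times that of control on the means (log2 fold change -1.24, standard error 0.27, adjusted p = 0.0751). The following 4 genes of the list were named after their values were seen. PDK4, which inhibits the entry of pyruvate into the mitochondrial cycle, had 278.7, 262.1 and 278.3 FPKM in control birds and 91.3, 174.6 and 113.5 FPKM in affected birds (-1.16, adjusted p = 0.0675). KLF15, a transcription factor of amino acid catabolism and gluconeogenesis, was at 91.4 ± 23.9 and 50.1 ± 7.82 FPKM (-0.83, adjusted p = 0.122). PPARGC1A, a coactivator of gluconeogenic genes, was at 5.75 ± 1.96 and 2.97 ± 1.22 FPKM (-0.78, adjusted p = 0.250), and CITED2, a transcriptional coactivator, at 12 ± 4.17 and 5.58 ± 1.14 FPKM (-0.95, adjusted p = 0.116). In each of these 5 genes every bird with fatty liver was below every control bird. The margin of PPARGC1A was narrow, with 3.96 FPKM in the lowest control bird and 3.84 FPKM in the highest affected bird. It was counted on as few as 62 fragments. FBXO32 of the same list was also separated by a narrow margin, at 2.41 and 2.36 FPKM, on as few as 59 fragments.

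Of the 15 genes 5 had a log2 fold change above 0, with the carboxykinases of gluconeogenesis PCK1 and PCK2 the highest of them. PCK2, the mitochondrial enzyme and the most abundant of the 15 tested transcripts, had 456.7, 351.9 and 393.8 FPKM in control birds and 802.6, 525.5 and 616.1 FPKM in affected birds, all above the control birds (0.68, adjusted p = 0.157). PCK1, the cytosolic enzyme, had 11.7, 2.90 and 177.6 FPKM in control birds and 117.9, 111.0 and 82.7 FPKM in affected birds. Control replicate 3 was the highest of all 6 birds and the other control birds the lowest, so the groups overlapped (2.33, standard error 1.17, adjusted p = 0.373). Single control birds decided this value, since the log2 fold change of PCK1 was 3.88 without control replicate 3 (adjusted p = 0.020), 1.12 without control replicate 2 (adjusted p = 0.572) and 1.97 without control replicate 1 (adjusted p = 0.583). Control replicate 3 also had the lowest IRS4, GRB14, IRS2 and GRB10 of its group. It had the highest INSR, PIK3CA, AKT1, PTPN2 and SGK1 of that group, and PIK3R1 lay in between. With 3 birds in a group each gene has a lowest and a highest bird, so this does not set the bird apart.

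**Figure D5:**
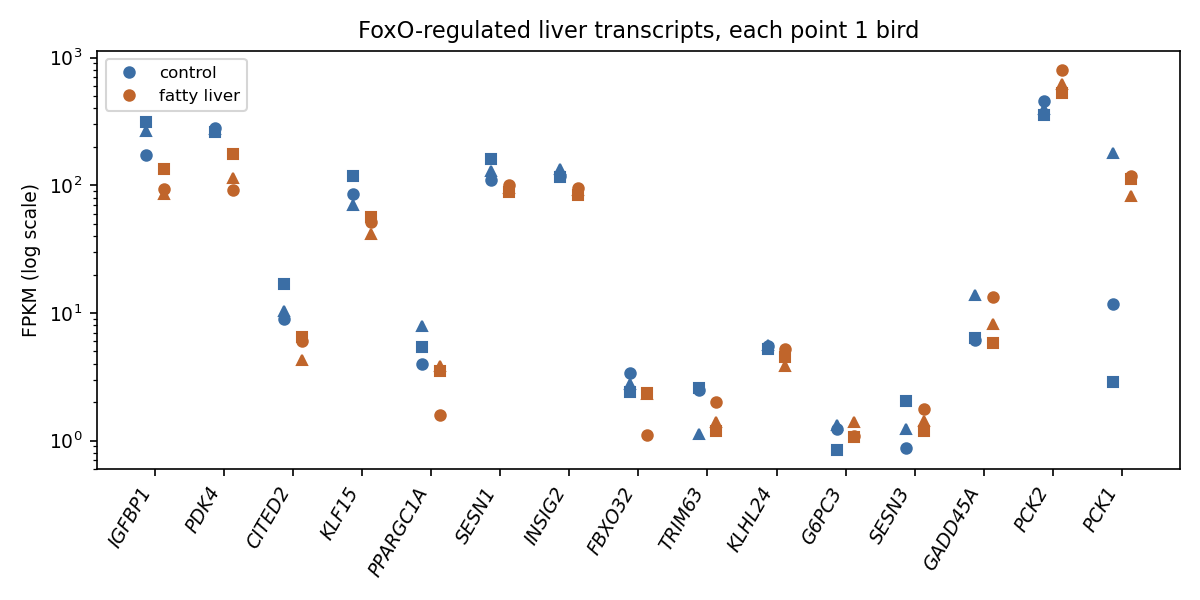
FPKM on a log scale of the 15 tested FoxO-regulated liver transcripts in each bird, ordered by log2 fold change, with control birds in blue and birds with fatty liver in orange (circle, square and triangle for replicates 1, 2 and 3). The 8 genes on the left, from IGFBP1 to FBXO32, are separated and lower in fatty liver, beside 4.78% of all tested genes. For PPARGC1A and FBXO32 the margin is narrow. PCK1 on the right spans 2.90 to 177.6 FPKM within the control group.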

How the data were processed

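Liver mRNA of 6 F1 JXH cocks (3 affected birds of the paternal inheritance group, 3 controls) was sequenced on an Illumina HiSeq, 1 library each. Reads were cleaned by Sickle and SeqPrep, and the authors mapped them to Gallus_gallus-5.0 and deposited FPKM per NCBI Gene ID. The aligner, the counting tool, the annotation and the test are not given in the sources used here. No scaling between libraries beyond FPKM is stated. Symbols came from the RefSeq gene table of a later assembly (bGalGal1.mat.broiler.GRCg7b), used for names only, with 16332 IDs matched.

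The 10886 genes whose mean reached 1 FPKM were fitted as log2(FPKM + 1) with limma 3.58.1 in R 4.3.3 (lmFit, eBayes with a trend, no covariate). Pseudocount, filter and scaling can all move a fold change. FPKM are whole fragments divided by a whole length and a library total, and all 3 could be solved for, with 100% of the FPKM given back. That share is not a separate check, since a length was kept only where whole fragments gave back the FPKM. The solved values served for depth, counting error and voom (normalised by trimmed mean of M values). Intervals cover the spread between birds, and counting errors cover counting only. Both steps were tested on simulated data.

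The members and lists were chosen with earlier results of these data known. The named genes were the 8 members, and in each list the genes with an adjusted p under 0.05, the 2 with the largest absolute change and the 1 with the highest level. For each substrate the 3 genes with the highest Pearson r were named, and others are marked as chosen later. The values of 1 gene that this rule gave are not reported here. Ratios and shares were given without a test. Results were recomputed with a pseudocount of 0.1, without the filter, under 4 rescalings (same median, quantile normalization, without the 50 most abundant genes, voom), without the trend, with robust eBayes, with a replicate block, and with each library left out. The qRT-PCR, serum and histology data were not analysed here.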

Additional observations from a re-analysis of the deposited data

How the results depend on the processing

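None of the fold changes of INSR, IRS2, IRS4, PIK3CA, AKT1, GRB10 and GRB14 changed sign in the 15 alternative fits. That of PIK3R1 turned from 0.09 to -0.05 after median scaling of the libraries, -0.06 after quantile normalization, -0.07 when the 50 most abundant genes were left out of the totals (rescaled) and -0.06 with voom, and was between -0.08 and 0.30 with 1 library left out. Under the same 4 settings, in order, RPS6 turned to -0.04 (median scaling), -0.06 (rescaled) and -0.04 (voom), and PPP2CB to -0.02 (quantile) and -0.01 (rescaled). With 1 library left out RPS6 was between -0.03 and 0.21 and SHC1 between -0.01 and 0.33. Likewise IRS2 was between -0.46 and -0.17, PIK3CA between 0.10 and 0.21, GRB10 between -0.28 and -0.06 and GRB14 between 0.17 and 0.64.

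The number of members called was 0 in the fit as reported, 1 with voom and between 0 and 1 with 1 library left out. In the pathway lists 0 genes were called, 1 each after median scaling, when rescaled and with voom, and between 0 and 1 with 1 library left out. Over all genes 124 were called, 30 without the filter, 79 after median scaling and between 20 and 127 with 1 library left out (77 without control replicate 1, 36 without control replicate 2, 21 without fatty liver replicate 2 and 20 without fatty liver replicate 3). Of the calls, 92 (74.2%) pointed up with the deposited FPKM and 44 of 84 (52.4%) after rescaling. The median log2 fold change of all genes moved from 0.12 to -0.01. What causes these shifts was not tested.

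The IRS4 share of the substrates in control moved from 55.2% to 48.3% on whole fragments, which follows from the length in the FPKM. It was between 52.6% and 57.4% in control and between 38.8% and 46.1% in fatty liver with 1 bird left out. With the replicate block 140 genes, 0 of the 8 members and 2 pathway genes (PTPN2 and IGFBP1) were called. Same-numbered birds are different animals, and their deviations from the group means correlated at 0.0249, 0.045 and 0.0485. Whether they shared a batch or handling was not tested. The depth limits PIK3CA most, at 95 fragments in its lowest library.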
